A study of Mus musculus with 4 samples.

Results

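The 10 genes followed here mark CD8 lineage and cytotoxic maturation of T cells, and were counted in the thymus of 1 WT and 1 Eif4g2 cKO mouse. They are Dapl1, Ly6c2, Gzma, Nkg7, Ccl5, Klrd1, Xcl1, Itgae, Ms4a4b and Ly6a, which are 10 of the 21926 genes in the files. They were listed by symbol, and earlier results on these same cells were known when they were chosen, Dapl1 and Ly6c2 for low and Gzma for high levels in the cKO library after selection. The ratios between the libraries are therefore given as descriptions. The WT mouse was Eif4g2 flox/flox without Cre and the Eif4g2 cKO mouse carried CD4-Cre on Eif4g2 flox/flox. Cre driven by Cd4 acts from the double-positive stage of thymocytes on. Both mice were 5 weeks old on a C57BL/6 background, were labelled female and had the same batch label, and unsorted thymus cells of each were captured on the DNBelab C4 system, which tags each molecule with a unique molecular identifier (UMI).

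Thymocytes pass from a CD4- CD8- double-negative (DN) to a CD4+ CD8+ double-positive (DP) stage, are selected there on their receptor, and mature as CD4 or CD8 single-positive cells that leave for the periphery. CD8 T cells are set up by the transcription factor Runx3 and acquire parts of a killing and chemokine programme that natural killer (NK), NKT and gamma delta T cells share. Among the members, Gzma encodes a granule protease and Nkg7 a granule membrane protein. Ccl5 and Xcl1 encode chemokines, Klrd1 the CD94 chain of NK receptors, and Itgae the CD103 integrin chain that binds E-cadherin. Ms4a4b, Ly6c2 and Ly6a encode surface proteins of mature T cells, the last of them Sca-1, and Ly6a and Ly6c2 respond to interferon. Dapl1 is expressed in naive CD8 T cells.

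The libraries held 18355050 UMIs over 6014 barcodes (WT) and 18056277 UMIs over 4335 barcodes (cKO), each barcode with at least 1000 UMIs, and 6012 and 4335 cells passed the stated filter. With 1 mouse per genotype no test between genotypes was possible, and every interval below is a 95% interval that covers counting error only. Y-linked genes, against the female label, had 2542 UMIs in the WT and 1 UMI in the cKO library, so that mouse, sex and genotype cannot be told apart. Eif4g2 itself stood at 223 UMIs per 1000000 counted (CPM) in WT and 274 CPM in cKO cells, but the counts are per gene, with no exon positions, and do not check the deletion. The 2 libraries shared 1055 barcode names.

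Cells were sorted into classes by UMIs of marker lists that hold none of the 10 genes. Mature cells had at least 3 UMIs from at least 2 genes of a maturation list that includes Klf2, S1pr1, Ccr7, Gimap3, Gimap4 and Gimap6, and innate-like cells the same of a list of NK, NKT and gamma delta genes. There were 613 mature cells in WT (10.2% of all cells) and 216 in cKO (4.98%), with a median of 3517 and 3339 UMIs per cell, and 43 and 27 innate-like cells. The classes are ranges on a count: 68 WT and 30 cKO mature cells lay at 3 UMIs of the list, and 65 and 27 other cells at 2. The median mature cell held 1 UMI of the DP list in WT and 0 in cKO, and 3 and 2 of the list of recently signalled cells. By coreceptor, 227 WT and 63 cKO mature cells had Cd8a or Cd8b1 and no Cd4 UMI (Cd8-only), 109 and 36 had Cd4 alone, 209 and 98 had both, and 68 and 19 had neither. Mature cells with both carried UMIs of 2 coreceptors that are separated in finished single-positive cells, and no doublet was removed.

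In WT cells part of the list lay on the Cd8 side of the coreceptor split. Of the 10 genes, 6 had at least 50 UMIs over WT Cd8-only and Cd4-only mature cells, and 5 of those 6 (Dapl1, Ly6c2, Nkg7, Itgae and Ms4a4b) lay higher in the Cd8-only cells by more than 0.5 on the log2 scale, against 12.4% of all genes with as many UMIs. Ly6a was the sixth. Dapl1, Ly6c2, Nkg7 and Itgae passed the minimum through their Cd8-only UMIs, with 4, 3, 4 and 1 UMIs in Cd4-only cells. The Cd8-only cells also held more UMIs of all genes, 919455 against 385279. The count is therefore no check of the name. Nkg7, Ly6c2 and Ms4a4b alone had enough UMIs for this comparison in both libraries, and Nkg7 and Ly6c2 were higher in Cd8-only cells in both, against 2.29% of genes. In cKO Ly6c2 had 54 UMIs in Cd8-only cells, 28 and 23 of them in single cells, and 0 in Cd4-only cells. Of the Gzma UMIs 66.8% in WT and 70.4% in cKO were counted in DP cells. These shares show no enrichment by themselves, as DP cells held most UMIs of all genes. They held 11731139 of 18352386 UMIs in WT and 13547254 of 18056277 in cKO. Per UMI, Gzma was lower in mature than in DP cells in WT (30.5 against 170 CPM). In cKO the levels were 116 and 164 CPM, within 0.5 on the log2 scale (-0.49). The heat map of levels shows where else the genes were counted.

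**Figure D1:**
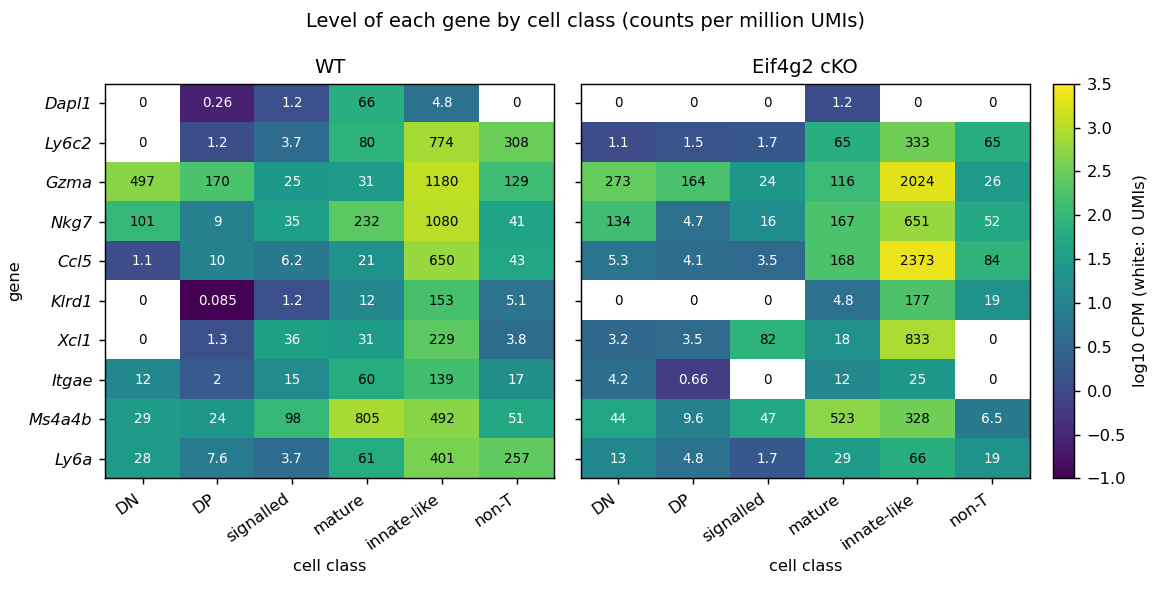
Level of each gene in 6 cell classes of the WT (left) and Eif4g2 cKO (right) library, in CPM; the colour is log10 CPM and white stands for 0 UMIs. Dapl1 is at 65.9 CPM in WT mature cells and 1.21 CPM in cKO mature cells, and Gzma is at 170 and 164 CPM in WT and cKO DP cells.

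Nkg7 lay on the CD8 side of the coreceptor split in both libraries. It had 403 UMIs in 104 of 227 WT Cd8-only cells (438 CPM) and 4 UMIs in 2 of 109 WT Cd4-only cells (10.4 CPM), a 42.2-fold difference (log2 5.40, interval 4.03 to 7.28). In cKO cells the values were 99 UMIs in 17 of 63 Cd8-only cells (397 CPM) and 2 UMIs in 1 of 36 Cd4-only cells (18.6 CPM), log2 4.41 (2.52 to 7.48). DP cells, with medians of 1637 and 2304 UMIs, had an Nkg7 UMI in 1.51% of WT and 1.28% of cKO cells. Of mature cells 24.6% in WT and 13.0% in cKO had one. DN cells, which were deeper (medians 7597 and 7170 UMIs), had one in 40.3% of WT and 41.2% of cKO cells. Thinned to 1000 UMIs, 15.6% of WT and 9.28% of cKO DN cells had one, beside 11.9% and 8.33% of mature cells. Per UMI the log2 ratio of cKO to WT in Cd8-only cells was -0.14 (-0.47 to 0.18), and -0.50 (-0.88 to -0.14) without the richest cell of each library. The share of Cd8-only cells with an Nkg7 UMI was 45.8% (39.2 to 52.5) in WT and 27.0% (16.6 to 39.7) in cKO. After thinning each cell to 1000 UMIs the shares were 22.0% and 17.5%. Among mature cells of any coreceptor the cKO UMIs lay in fewer and richer cells. There 4 cells with 26, 19, 16 and 12 UMIs, the last with both coreceptors, held more than the 24 others together, and the richest WT cell had 16. Over all mature cells the levels were 232 CPM in WT and 167 CPM in cKO (log2 -0.47, -0.75 to -0.20), and without the richest cell of each library the ratio passed 0.5, at -0.73 (-1.03 to -0.43). In clusters of both libraries together, in which other cells count as mature, it was -1.41. With the classes cut again after thinning to 1000 UMIs, which left 249 WT and 87 cKO mature cells, it turned to 0.56. The thinned shares above keep the classes of full depth.

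Of the 146 Itgae UMIs in WT mature cells 110 lay in Cd8-only cells and 35 in cells with both coreceptors, as the plot by coreceptor shows, and the whole WT library held 247. It had 110 UMIs in 61 of 227 WT Cd8-only cells (26.9%, 21.2 to 33.1) and 1 UMI in 109 Cd4-only cells, a ratio of 46.1 (log2 5.53, 3.02 to 10.84). In cKO it had 6 UMIs in 5 of 63 Cd8-only cells (7.94%, 2.63 to 17.6) and 0 in 36 Cd4-only cells. Over all mature cells 60.2 CPM (50.8 to 70.8) were found in WT, spread over 80 cells with at most 5 UMIs each, and 12.1 CPM (5.81 to 22.3) in cKO, with 10 UMIs in 7 cells. The WT level was 4.97 times the cKO level (log2 ratio of cKO to WT -2.31, -3.40 to -1.39), and without the richest cell of each library the ratio was -2.58. Thinned to 1000 UMIs, 3.59% of WT and 0.926% of cKO mature cells had a UMI. Of the 80 WT mature cells with Itgae 63 also had Nkg7, against 88 of the 533 without Itgae, but the cells with Itgae were also deeper (median 4698 against 3360 UMIs). Haspin lies on the other strand inside the Itgae locus, which is chr11:73090583-73147446 (GRCm38, plus strand), and reads of the 2 genes can be told apart only if strand was used in counting.

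**Figure D2:**
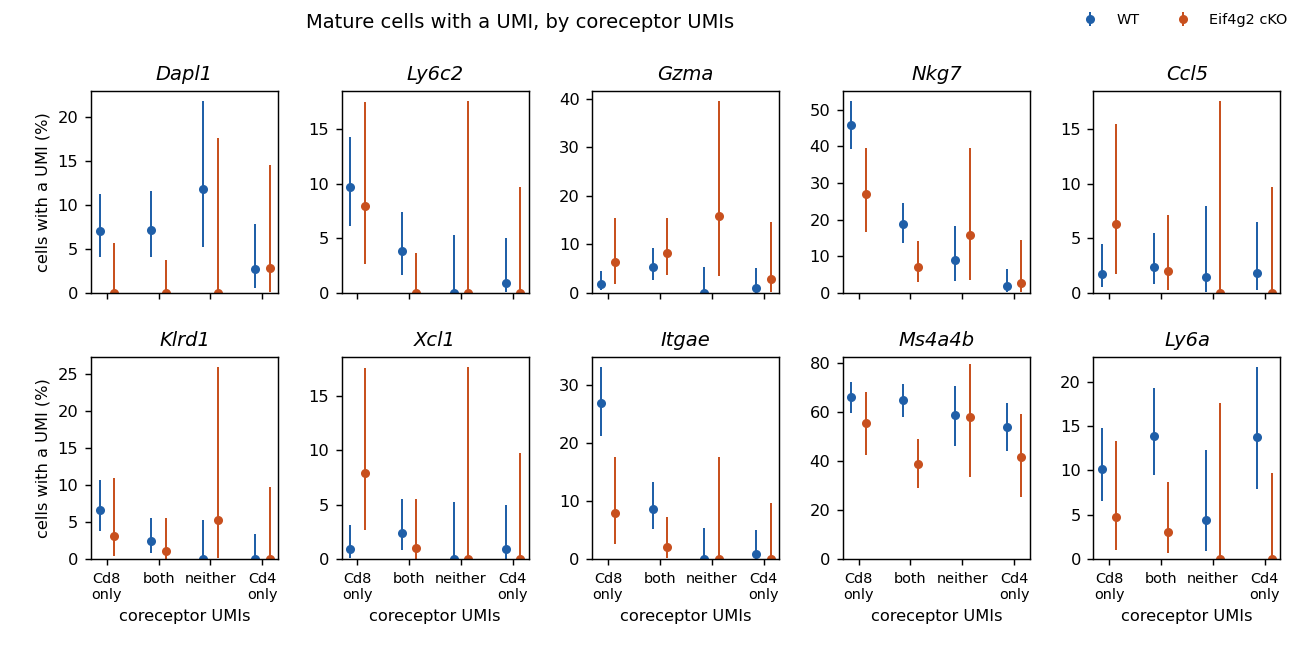
Share of mature cells with at least 1 UMI of each gene (y axis, percent) by the coreceptor UMIs of the cell (x axis), in WT (blue) and Eif4g2 cKO (orange); bars are exact binomial 95% intervals over cells of 1 library. Nkg7 and Itgae fall from 45.8% and 26.9% of WT Cd8-only cells to under 2% of WT Cd4-only cells, and Ms4a4b is above 40% in every WT group.

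Dapl1 had the lowest ratio of the 10 in mature cells, the contrast it was chosen on. The WT library held 160 UMIs in 42 of 613 mature cells (6.85%, 4.98 to 9.15; 65.9 CPM) and the cKO library 1 UMI in 216 (0.463%, 0.0117 to 2.55; 1.21 CPM). The ratio was -5.77 on the log2 scale with an interval of -11.08 to -3.27, and that single UMI was the only Dapl1 molecule among all 4335 cKO cells. One WT cell held 34 of the 160 UMIs and the next 4 held 12, 11, 11 and 10, while 19 of the 42 had 1. Without the richest cell of each library 126 UMIs stood against 0, and against a floor of 3 UMIs over the class the ratio was -3.82 or lower. Thinning left 26 WT cells with a UMI and 0 of 216 cKO cells. In Cd8-only cells 76 UMIs in 16 WT cells stood against 0 in 63 cKO cells, and in cells with both coreceptors 69 UMIs in 15 cells against 0 in 98. Taken as 3 cells, a count of 0 limits the share of cells with a UMI to 4.76% of the 63, which is no limit on cells that express the gene. Outside mature cells WT Dapl1 was almost absent, with 3 UMIs in 3911 DP cells and 1 in innate-like cells. WT mature cells with a UMI of S1pr1, the receptor used to leave the thymus, had Dapl1 at 94.6 CPM, against 52.0 CPM without, and 38 of the 42 cells with Dapl1 also had Ms4a4b.

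The start regions of Nkg7, Ly6c2, Dapl1 and Gzma are shown because these genes differ in where they were counted. Nkg7 and Ly6c2 were counted in Cd8-only cells of both libraries and Dapl1 in WT mature cells. Gzma had higher levels in DP, DN and innate-like than in mature cells. The windows are from RefSeq on GRCm38.p6 and run from 250 bases before to 50 bases after the annotated start, in the direction of the gene, and 6 of the 10 members have such a window in the table used. Capitals mark TGTGGT or ACCACA, the core letters read by Runx factors on either strand, and lie in 16.8% of 32851 windows of this length.
Nkg7 (chr7:43436888-43437187, plus strand): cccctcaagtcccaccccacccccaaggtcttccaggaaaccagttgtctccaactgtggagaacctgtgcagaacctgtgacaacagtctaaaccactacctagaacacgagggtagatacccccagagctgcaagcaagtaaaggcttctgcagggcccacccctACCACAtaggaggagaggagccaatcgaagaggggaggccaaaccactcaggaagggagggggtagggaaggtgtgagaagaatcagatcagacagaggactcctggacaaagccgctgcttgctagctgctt
Ly6c2 (chr15:75111922-75112221, minus strand): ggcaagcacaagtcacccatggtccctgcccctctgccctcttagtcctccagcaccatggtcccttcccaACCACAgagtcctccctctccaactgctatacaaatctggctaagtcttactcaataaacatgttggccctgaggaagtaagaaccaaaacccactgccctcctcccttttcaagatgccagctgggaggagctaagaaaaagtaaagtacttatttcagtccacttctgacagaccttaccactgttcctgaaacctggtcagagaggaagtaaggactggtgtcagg
Dapl1 (chr2:59484403-59484702, plus strand): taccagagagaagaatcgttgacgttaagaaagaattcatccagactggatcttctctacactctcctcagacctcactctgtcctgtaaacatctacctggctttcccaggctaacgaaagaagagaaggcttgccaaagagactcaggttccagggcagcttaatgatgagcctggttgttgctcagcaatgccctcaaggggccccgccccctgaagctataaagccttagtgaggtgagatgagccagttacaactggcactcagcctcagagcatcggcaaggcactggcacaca
Gzma (chr13:113100932-113101231, minus strand): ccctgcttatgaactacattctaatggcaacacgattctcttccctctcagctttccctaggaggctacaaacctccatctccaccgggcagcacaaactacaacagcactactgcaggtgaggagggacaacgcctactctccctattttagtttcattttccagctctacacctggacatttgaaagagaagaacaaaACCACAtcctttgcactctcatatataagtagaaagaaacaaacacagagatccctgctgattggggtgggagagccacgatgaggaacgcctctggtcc
The letters begin 83 bases before the start in Nkg7, 179 in Ly6c2, 50 in Gzma and 227 in Xcl1, whose window is not printed, and the windows of Dapl1 and Ms4a4b hold none. The T-box letters AGGTGT (or ACACCT) were found in Nkg7 and Gzma and lie in 13.7% of all windows, and the ETS letters AGGAAG (or CTTCCT) in Nkg7, Ly6c2 and Xcl1 and in 35.4% of all windows. Such matches describe the sequence and are no sign of binding.

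Ly6c2 was carried by few cells in either library. In WT 194 UMIs lay in 31 of 613 mature cells (80.0 CPM), the richest with 29, 26, 20 and 18. In cKO 54 UMIs lay in 5 of 216 cells (65.4 CPM), with 28, 23, 1, 1 and 1. The ratio was -0.29 (-0.75 to 0.15) and became -1.11 (-1.76 to -0.50) without the richest cell of each library. In the joint clusters it was -4.06, and with the classes cut again after thinning to 1000 UMIs it was 1.72. All 5 cKO cells were Cd8-only, as were 22 of the 31 WT cells, whose UMIs gave 174 CPM against 7.79 CPM in Cd4-only cells. Of the 31 WT cells 25 had Nkg7 as well. The near-identical neighbour Ly6c1, whose reads can be confused with those of Ly6c2, had 27 UMIs in WT and 0 in cKO mature cells. Ly6c2 was also counted outside T cells, with 241 UMIs in 16 of 136 WT non-T cells, 180 of them in 1 cell, and 189 in the 5 cells gated on the list for plasmacytoid dendritic cells (Siglech, Tlr7 and Irf8).

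Klrd1 was sparse in mature cells, with 29 UMIs in 20 WT cells and 4 UMIs in 4 cKO cells (log2 -1.30, -3.27 to 0.21), too few for a call. All but 1 of the 20 WT cells and all 4 cKO cells also had Nkg7, as 19 of 151 and 4 of 28 cells with Nkg7 had Klrd1. None of the 109 WT and 36 cKO Cd4-only cells had a UMI. In innate-like cells its share was 25.6% (11 of 43) in WT and 25.9% (7 of 27) in cKO, with levels of 153 and 177 CPM and a log2 ratio of 0.21 (-0.52 to 0.95) that was -0.18 without the richest cells, 0.88 (0.12 to 1.65) in cells without Sox13 or Blk UMIs and 1.58 in the joint clusters.

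Ms4a4b had the most UMIs of the list in mature cells, 1953 in 385 of 613 WT cells (62.8%, 58.8 to 66.6) and 432 in 99 of 216 cKO cells (45.8%, 39.1 to 52.7). Its level was 805 CPM (770 to 842) in WT and 523 CPM (475 to 575) in cKO, a 1.54-fold difference (log2 -0.62, -0.77 to -0.47). No single cell carried it: the richest held 32 UMIs in WT and 33 in cKO, and without them the ratio was -0.70. In cells with at least 5 UMIs of the mature list it was -0.44, within 0.5. Thinned to 1000 UMIs, 41.1% of WT and 29.6% of cKO mature cells had a UMI. The split by coreceptor was shallow, 951 CPM in WT Cd8-only against 638 CPM in WT Cd4-only cells, and turned in cKO, with 566 and 736 CPM (log2 -0.38, -0.79 to 0.04), where 1 Cd4-only cell held 29 of 79 UMIs. Ms4a4b was lower in cKO than in WT in Cd8-only cells (-0.75), in cells with both coreceptors (-0.77), in innate-like cells (-0.58) and in DP cells (-1.34, 24.3 against 9.60 CPM). In DN cells it stood at 44.5 CPM in cKO against 29.5 CPM in WT (log2 0.59, -0.15 to 1.36). There 16 of the 42 cKO UMIs lay in 1 cell, and 18.6% of cKO and 18.2% of WT cells had a UMI. In Cd4-only cells the ratio was within 0.5 (0.20, -0.18 to 0.58). In cells with 0 UMIs of both coreceptors 58.8% of WT and 57.9% of cKO cells had a UMI.

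Ly6a was found in 70 of 613 WT mature cells (11.4%, 9.01 to 14.2; 147 UMIs, 60.6 CPM) and 6 of 216 cKO mature cells (2.78%, 1.03 to 5.95; 24 UMIs, 29.1 CPM). Of the 24 cKO UMIs 19 lay in 1 cell, and the ratio of -1.06 (-1.75 to -0.43) became -3.19 (-4.84 to -1.94) without the richest cell of each library. Unlike Nkg7 and Itgae it showed no side of the coreceptor split in WT, with 51.1 CPM in Cd8-only and 59.7 CPM in Cd4-only cells (log2 -0.22, -0.97 to 0.56). Since Ly6a and Ly6c2 respond to interferon, mature cells were also divided by UMIs of Isg15, Ifit1, Ifit3 and Irf7, a division made after the values were seen. Of 613 WT mature cells 297 had such a UMI, against 64 of 216 in cKO. Median depth was 3845 UMIs in WT cells with and 3207.5 in WT cells without such a UMI, and 3355.5 and 3298.5 in cKO. In WT, Ly6a stood at 87.6 CPM in cells with and 29.3 CPM in cells without these UMIs. In cKO the values were 88.8 and 3.46 CPM, 22 and 2 UMIs, and their part in the difference between the libraries was not tested. Ms4a4b, too, was higher in cells with these UMIs, 970 against 614 CPM in WT and 848 against 384 CPM in cKO. In WT so was every other member but Ccl5 (18.5 against 23.1 CPM), with Ly6c2 at 101 against 56.0 and Dapl1 at 84.6 against 44.4 CPM. The intervals overlapped for Nkg7, Klrd1 and Itgae, and the share of all genes is not given for this division. For Gzma and Xcl1 single cells held 50 of 69 and 66 of 75 UMIs in the cells with these UMIs. In cKO Ly6c2 stood at 218 against 0 CPM, but Gzma at 24.2 against 156 CPM. There Itgae was at 12.1 CPM in both groups and Dapl1 had 0 against 1 UMI.

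The higher level of Ccl5 in cKO mature cells lay in 4 cells. The WT library held 50 UMIs in 12 of 613 mature cells, at most 13 in a cell (20.6 CPM), and the cKO library 139 UMIs in 6 of 216 (168 CPM; log2 3.03, 2.55 to 3.53). Of the 139, 45, 37, 29 and 26 lay in 4 Cd8-only cells and 1 in each of 2 others. In the joint clusters the ratio turned to -0.88. The intervals of the shares of cells with a UMI overlapped, at 1.96% (1.02 to 3.39) in WT and 2.78% (1.03 to 5.95) in cKO, beside 1.43% and 1.01% of DP cells, which were less deep. DP cells held 123 of the 400 Ccl5 UMIs of the WT library. The 4 cells had between 3030 and 6519 UMIs in all and no Cd4 UMI, and each held at most 2 UMIs of the innate-like list, under the limit of 3. They also held 26, 7, 16 and 19 UMIs of Nkg7, in the same order, while 2 of them held the 23 and 28 Ly6c2 UMIs named above and 2 had at least 1 Eomes UMI. No WT mature cell had both Ccl5 and 20 or more UMIs of another member besides Ms4a4b. The plot of UMIs per cell shows them as the group of high orange points.

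**Figure D3:**
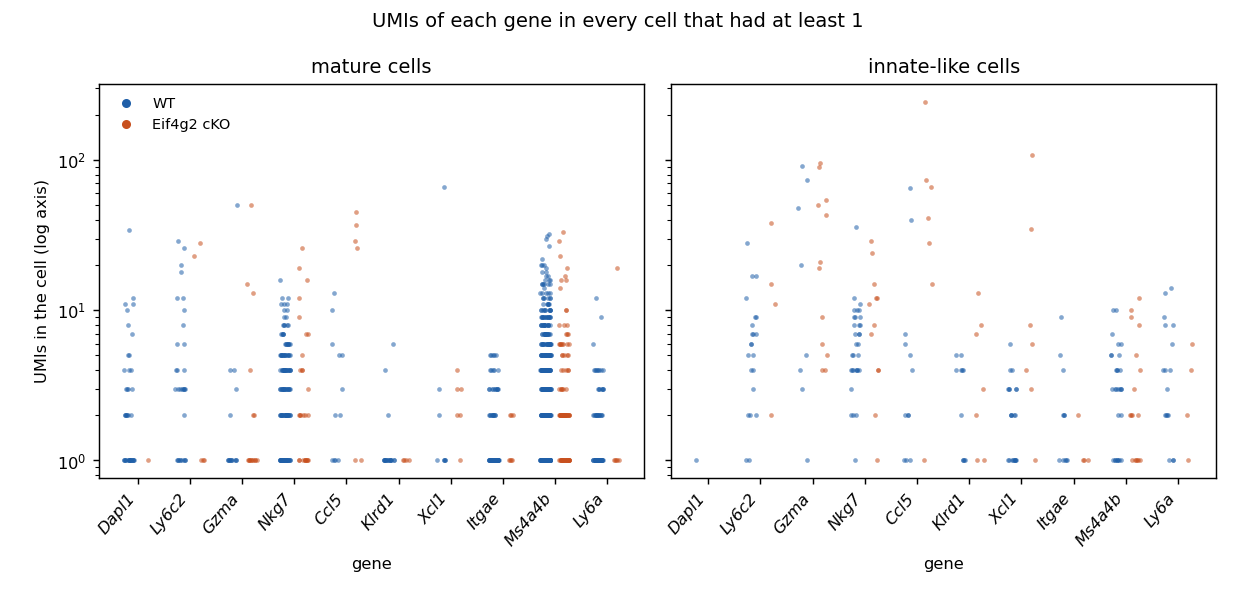
UMIs of each gene in every mature (left) and innate-like (right) cell that had at least 1 (log y axis), WT in blue and Eif4g2 cKO in orange; each point is a cell and sideways jitter carries no meaning. Ccl5 in cKO mature cells is 4 cells with 26 to 45 UMIs, and Xcl1 in WT mature cells is 1 cell with 66 UMIs and 7 with at most 3.

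The ratio of Xcl1 in mature cells turned on a single cell. In WT mature cells 66 of its 76 UMIs lay in 1 cell that had UMIs of both coreceptors, and the 7 others had at most 3, while the cKO library held 15 UMIs in 6 cells with at most 4. The ratio of all UMIs was -0.79 (-1.69 to 0.03), and without the richest cell of each library it was 1.70 (0.33 to 3.09). In Cd8-only cells 5 of 63 cKO cells (7.94%, 2.63 to 17.6) had a UMI, against 2 of 227 WT cells (0.881%, 0.107 to 3.15). Gm20743 overlaps Xcl1 on the other strand and is not among the genes in the files.

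Gzma was highest, among DP cells, in those with most UMIs of cycling genes in both libraries. DP cells held 1992 UMIs in 546 of 3911 WT cells (170 CPM, 162 to 177) and 2219 UMIs in 561 of 2960 cKO cells (164 CPM, 157 to 171), a log2 ratio of -0.05 (-0.14 to 0.04). The share of DP cells with a UMI was 14.0% in WT and 19.0% in cKO, but cKO DP cells were deeper, and after thinning to 1000 UMIs the shares were 6.32% and 6.35%. With 0 UMIs of the cycling genes (Mki67, Top2a, Cdk1, Ccnb1 and Stmn1) Gzma stood at 70.2 CPM in WT against 50.7 CPM in cKO, and with 30 or more at 270 against 214 CPM. The levels of the bins in between lay in the same order in both libraries, as the plot of Gzma by cycling UMIs shows, and in each bin but the second the cKO level was below the WT interval. The top bin held 417 of 3911 WT and 702 of 2960 cKO DP cells, so the 2 DP totals are over different mixes of bins. DN cells had 497 CPM in WT and 273 CPM in cKO. In mature cells 16 cells of each library had a UMI, 16 of 613 in WT (74 UMIs, 50 in 1 cell; 30.5 CPM) and 16 of 216 in cKO (96 UMIs, the richest with 50, 15 and 13; 116 CPM), with a log2 ratio of 1.93 (1.48 to 2.39) that was 2.51 without the richest cells. Only 7 of these UMIs in each library were in Cd8-only cells, and 64 and 71 were in cells with both coreceptors. Cycling genes were at 995 CPM in WT and 1086 CPM in cKO mature cells, and the DP list at 269 and 263 CPM.

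**Figure D4:**
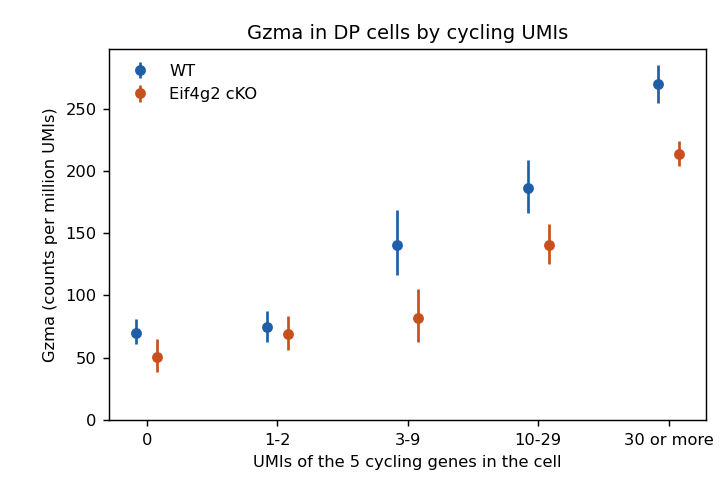
Gzma in DP cells (y axis, CPM) by the number of UMIs of 5 cycling genes in the cell (x axis), WT in blue and Eif4g2 cKO in orange; bars are exact Poisson 95% intervals. The level goes from 70.2 to 270 CPM in WT and from 50.7 to 214 CPM in cKO.

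Most of the genes were higher in innate-like than in mature cells. Of the 6 members with at least 50 UMIs in both libraries for this comparison, Ly6c2, Gzma, Nkg7, Ccl5 and Xcl1 were higher in innate-like than in mature cells in both, against 4.09% of all genes, and Ms4a4b was lower in both. Nkg7 stood at 1080 CPM in WT innate-like cells (32 of 43 cells with a UMI) and 651 CPM in cKO (12 of 27), and Ly6c2 at 774 CPM (22 cells) and 333 CPM (4 cells). Ccl5 stood at 650 CPM in WT, 65 and 40 of its 136 UMIs in 2 cells, and 2373 CPM in cKO, where 245 of 470 lay in 1 cell. Xcl1 was found in 22 of 43 WT cells with at most 6 UMIs each (229 CPM) and in 7 of 27 cKO cells, where 108 of 165 lay in 1 cell (833 CPM). Gzma had 247 UMIs in 8 WT cells (1180 CPM), the richest with 92, 74 and 48, and 401 UMIs in 12 cKO cells (2024 CPM), the richest with 96, 90 and 54. Without the richest cell of each library the Xcl1 ratio went from 1.86 to 0.51 (-0.09 to 1.12). Itgae had 29 UMIs in WT and 5 in cKO cells, and Ly6a 84 UMIs in 17 WT cells and 13 UMIs in 4 cKO cells (log2 -2.61, -3.58 to -1.76), which was -3.24 without the richest cells.

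The innate-like class was mixed, and its make-up differed between the libraries. After the values were seen it was divided by UMIs of Sox13 or Blk, genes of gamma delta T cells that make interleukin 17: 12 of 43 WT and 15 of 27 cKO cells had one. Gzma stood at 2231 and 2302 CPM in the cells with these UMIs in WT and cKO, where Ccl5 was at 0 in both and Xcl1 had 2 and 0 UMIs. Without these UMIs, Nkg7 had 1592 CPM in WT cells against 1353 CPM in cKO cells (log2 -0.24, -0.58 to 0.10), Ccl5 at 1099 and 5577 CPM, and Gzma at 453 and 1649 CPM. Those Gzma levels rest on 3 WT cells, 1 with 48 of 56 UMIs, and 2 cKO cells, 1 with 96 of 139, and 1 cKO cell held 245 of the 470 Ccl5 UMIs. Over the whole class the Nkg7 ratio was -0.73 (-1.05 to -0.41). Eomes, a defining factor of NK cells, was at 0 in innate-like cells of both libraries, and 12 of the 13 list genes in the files had a UMI in WT and 11 in cKO. Among these, Ncr1 was found in 2 of 43 WT and 1 of 27 cKO cells, Klrb1c in 19 and 4, and Klrk1 in 13 and 5. Whether the class held NK cells was not tested.

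Set side by side, the cKO to WT ratios of the 10 genes had no single direction. In mature cells 9 members had at least 50 UMIs: Dapl1, Itgae, Ly6a, Xcl1 and Ms4a4b were lower by more than 0.5 on the log2 scale, against 36.2% of all genes, Gzma and Ccl5 were higher, against 8.68%, and Nkg7 and Ly6c2 lay within. The median over all 10 members, with Klrd1 under 50 UMIs, was -0.70 and that of all genes -0.24. In Cd8-only cells, of 7 members with enough UMIs, Dapl1, Itgae and Ms4a4b were lower (39.9% of all genes) and Ccl5 and Ly6a higher (10.3%; 19 of the 21 Ly6a UMIs in 1 cKO cell). Nkg7, at -0.14, lay in the middle of these 7. The median over all 10 members, with Gzma, Klrd1 and Xcl1 under 50 UMIs, was 0.088, and that of all genes -0.29. Without the richest cells Ly6a was at -2.23 there. In innate-like cells, of 8 members, Ly6c2, Nkg7, Ms4a4b and Ly6a were lower (20.3% of all genes) and Gzma, Ccl5 and Xcl1 higher (21.1%). The median there was -0.58 over 9 members, with Itgae under 50 UMIs, and that of all genes 0.080. The mature comparison is the one the members were chosen on. Over all genes, longer genes had lower ratios: genes that span up to 5 kb had a median of 0.12, and those over 100 kb one of -0.95, and the members span 1.18 kb (Nkg7) to 56.9 kb (Itgae). The part of gene length in these ratios was not tested.

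**Figure D5:**
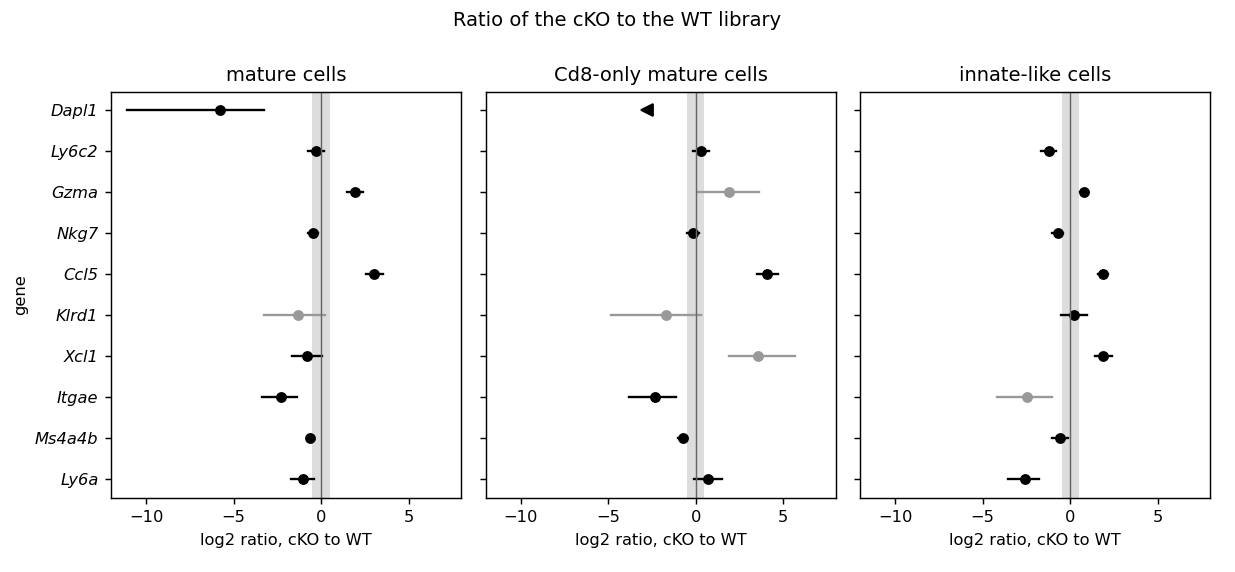
Log2 ratio of the Eif4g2 cKO to the WT library (x axis) for each gene in mature, Cd8-only mature and innate-like cells, with exact 95% intervals from counts; grey symbols have under 50 UMIs, the triangle is a bound at 3 UMIs and the shaded band is 0.5 to either side of 0. Dapl1 (-5.77) and Itgae (-2.31) lie lowest in mature cells and Ccl5 (3.03) highest.

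Mature cells with several of the genes at once were rarer in cKO. At least 3 of the 10 genes were detected in 103 of 613 WT mature cells (16.8%) and 14 of 216 cKO mature cells (6.48%), and none in 29.5% and 48.6%. The 10 genes include Dapl1 and Ly6c2, chosen for low, and Gzma, chosen for high levels in cKO. The direction is therefore in part set by that choice. Median depth was close in the 2 classes. Cd8-only cells were 227 of the WT and 63 of the cKO mature cells, and their part in these shares was not tested. Cells with Nkg7 had Ms4a4b in 84.8% of WT and 78.6% of cKO cases and Itgae in 41.7% (63 of 151) and 10.7% (3 of 28).

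Other genes of the programme, in lists put together with earlier results of these data known, were compared in the same cells. Of 13 CD8 programme genes 9 had at least 50 UMIs in mature cells, and 5 were lower in cKO, against 36.2% of all genes: Runx3, the factor of the CD8 lineage (176 against 81.2 CPM), Itgb7, the partner chain of CD103 (210 against 104 CPM), Ctsw (163 against 47.3 CPM), Cd7 (105 against 17.0 CPM) and Cd160 (21.8 against 10.9 CPM). Cd8a and Cd8b1 lay within 0.5, at -0.30 and -0.33. The ratios of the 9 ran from -2.63 (Cd7) to 0.17 (Cd96), and Cd160 was the median of the list. Of 13 cytotoxic effector genes only Cst7, Rab27a and Srgn had enough UMIs, with Cst7 (-1.18) and Rab27a (-0.76) lower, against the same 36.2%, and Srgn within. Granzyme B had 1 WT and 2 cKO UMIs in mature cells, and perforin 19 and 2. Of 12 maturation genes 9 had enough UMIs and 6 were lower (Ccr7, Cd52, H2-Q7, Il7r, Ms4a6b and S1pr1), against 36.2% of all genes, but Ccr7 and S1pr1, like Klf2, belong to the list that defines mature cells. In WT all 8 CD8 programme genes with enough UMIs were higher in Cd8-only than in Cd4-only cells, against 12.4% of all genes, Cd8a and Cd8b1 by construction. The minimum was again set on the sum of both groups.

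The genes most like each member were found by Pearson's r of log2(CPM + 10) over 20 points, the cell classes of both libraries, among 8891 genes with at least 200 UMIs. The points share libraries and depth, so r is a description. Ms4a4b was most like Gimap3 (r 0.95), Ifi47 and Gimap4, of which the Gimap genes define mature cells. Itgae was most like Bcl9l (0.85), Runx3 (0.84) and Jaml (0.80), and Nkg7 like Atp8b4 (0.88), H2-Q7 and Cd48. Dapl1 was most like Rapgef4 (0.84), Rab3ip and Tgtp2. Ly6c2 and Ccl5 were among each other's 3 nearest (r 0.87), each together with Ahnak, and Ccl5 was also among the 3 nearest of Klrd1 (0.84) and Xcl1 (0.75). Klrd1 was closest to Smpdl3a (0.88) and Xcl1 to Cd160 (0.84). Ly6a was nearest to Tor3a (0.84) and Ly6c2, and Gzma to Sdf2l1 (0.82) and Krtcap2 (0.80).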

How the data were processed

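Thymus cells of 1 WT and 1 Eif4g2 cKO mouse were captured with the DNBelab C4 system. The authors ran dnbc4tools (mm10; version 2.1.3 in the series text and 3.0 in the file headers) and deposited raw UMI counts per gene and barcode, without normalization. The labels list a cDNA and an oligo library for each mouse, and the matrices were assigned to the cDNA sample. Cells with at least 50 genes and at most 10% mitochondrial UMIs were kept, and no doublet caller was run. Members and lists were chosen with earlier results of these data known.

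Classes were assigned per cell in the order non-T, DN, innate-like, mature, signalled, DP and rest, from at least 3 UMIs of at least 2 list genes (erythroid cells, at least 20 UMIs). The mature list also had to outnumber the DP list, and signalled cells had fewer than 3 UMIs of the DP list. The 13 of 15 innate-like genes in the files were used. Named were the 10 members, the 3 genes most like each, and genes of 3 programme lists with at least 50 UMIs. Some genes that this rule or the lists hold are not reported here. Cells and genes singled out for single high cells were chosen after their values were seen.

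UMIs were summed per class and scaled to UMIs per 1000000 (CPM), with exact Poisson intervals. Ratios had exact conditional binomial intervals and shares exact (Clopper-Pearson) binomial intervals at 95%. Intervals reflect counting error alone. A gene was counted as higher or lower beyond 0.5 on the log2 scale with at least 50 UMIs. The scripts were tested on simulated counts. Gene positions were taken from GENCODE M21, in which 21379 of 21926 identifiers (97.5%) occur. Alternatives were the mature limit, thinning to 1000 UMIs, stricter cell limits, Leiden clusters (scanpy 1.11.5, leidenalg 0.10.2), equal weight of cells, centring, the UMI minimum and leaving out the richest cell. Python 3.11.15, numpy 2.4.6, scipy 1.17.1 and pandas 2.3.3 were used.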

Additional observations from a re-analysis of the deposited data

How the results depend on the processing

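No paired analysis was possible because each genotype had 1 library and no result comes from a test. The median ratio in mature cells (-0.70) kept its sign under the 7 alternatives chosen with the design and without the richest cell, moving most when cells were thinned to 1000 UMIs (-0.068) and in clusters of both libraries together (-1.82). In Cd8-only cells, looked at after the data were seen, it was 0.088, beside -0.29 for all genes. Single cells moved the ratios there: without the richest cell of each library Ly6c2 went from 0.32 to -0.43, Nkg7 from -0.14 to -0.50 and Ly6a from 0.72 to -2.23. Gzma (1.92), Ccl5 (4.35) and Xcl1 (5.09) stayed positive, and the other members negative. The 5 members lower in mature cells became 3 with a limit of 5 UMIs, 0 after thinning (which left 249 WT and 87 cKO mature cells, with too few UMIs to count) and 3 in Cd8-only cells. Thinning also left 0 members above the other class for the innate-like and the Cd8-only counts, from 5 and 2, and in joint clusters the Cd8-only count was 0. With no UMI minimum these counts were 8 and 4, and without the richest cell the Cd8-only count was 1.

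The innate-like median (-0.58) turned to 0.52 after thinning, with 13 WT and 6 cKO cells, and to 0.89 in joint clusters, where 33 of 43 WT and 10 of 27 cKO gated cells lay in the innate-like cluster. In mature cells Ccl5 turned to -0.88 in joint clusters, Xcl1 to 2.20 with a limit of 5 UMIs, 0.99 in joint clusters, 1.70 without the richest cell and 3.58 in Cd8-only cells, and Ly6a to 0.72 in Cd8-only cells, and after thinning Nkg7 turned to 0.56 and Ly6c2 to 1.72. In innate-like cells thinning turned Gzma to -2.05, Nkg7 and Ms4a4b to 0.66 and Ccl5 to -0.19, and Itgae, with under 50 UMIs, to 0.38, and joint clusters turned Ly6c2 to 0.88, Nkg7 to 0.89 and Ms4a4b to 0.84. The cause of these changes was not tested. In mature cells Dapl1 ranged from -7.15 to -0.60 (the last a bound after thinning, against 3 UMIs), Itgae from -2.58 to -0.80 and Ms4a4b from -0.98 to -0.15, lower in each alternative run, and Gzma from 1.51 to 3.93, higher in each. With the cKO library clustered alone, mature and innate-like cells fell in 1 cluster of 306 cells that raised 6 markers of the one and 7 of the other list. It was left unnamed and gave no value.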

Other observations

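Among cells with at least 20 UMIs of a member other than Ms4a4b, 6 were mature and 7 innate-like in WT, and 5 were mature and 11 innate-like in cKO. The richest Gzma cell of the cKO mature class held UMIs of Cd4 (11), Cd8a (4) and Cd8b1 (4) with 50 of Gzma, 12 of Nkg7 and 33 of Ms4a4b. The WT cell with 66 Xcl1 UMIs held 5 of Nkg7 and 6 of Ms4a4b and none of Ccl5. In the WT cell with 34 Dapl1 UMIs neither Nkg7 nor Ms4a4b was counted among 10319 UMIs. Signalled cells had Xcl1 at 36.1 CPM in WT (29 UMIs in 5 cells) and 82.1 CPM in cKO (47 UMIs in 7 cells).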
